A study of Mus musculus with 13 samples.

Results

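Prm1, Prm2, Prm3, Tnp1, Tnp2, Hils1, H1fnt, Hist1h1t, Hist1h2ba and Brdt are 10 genes through which male germ cells build, alter or read the chromatin of meiosis and of the sperm head. They were chosen by name, and all 10 were among the 20662 gene symbols listed in the RNA-seq tables of spermatogonia, which are germ cells that divide by mitosis before meiosis begins. The series profiled testicular germ cells of C57BL/6 mice at postnatal week 8, with 5 spermatocyte, 5 spermatid, 1 mature sperm and 2 spermatogonial samples. Values per gene were analysed for the spermatogonial samples only, titled KIT_AGSC and THY1_AGSC after surface antigens, with 1 library each, and the remaining 11 samples are not used here. KIT is the stem cell factor receptor of differentiating spermatogonia, and THY1 is an antigen used to enrich undifferentiated ones. Both samples are wild type mice of the same strain and age, their cell type label is spermatogonia, and the labels state neither how the cells were sorted nor how many animals were pooled. With 1 library per group there is no replicate check and no test, so every difference below compares a pair of libraries and carries no p-value.

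In spermatids, DNA is packed first with histone variants, then with transition proteins and finally with protamines, small arginine-rich proteins that replace nearly all histones and give the sperm head its compact form. The mRNAs of protamines and transition proteins are made in round spermatids, stored, and translated days later in elongating spermatids. Hist1h1t, Hist1h2ba and Brdt act earlier, from the spermatocyte stage on. None of these genes is known as a marker of spermatogonia.

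The coding sequences show how unusual these small proteins are. Of the 51 codons of Prm1, not counting the stop codon, 28 (54.9%) encode arginine and 9 (17.6%) encode cysteine. Prm2, which is made as a precursor and then cut, has 38 arginine codons (35.5%) and 16 histidine codons among 107. Prm3 is named a protamine but is acidic and not a DNA-packing protein, and it has 2 arginine codons among 101. Tnp1 is shared between arginine (11 of 55 codons) and lysine (10 of 55), and Tnp2 has 16 arginine and 11 lysine codons among 117. The linker histone Hist1h1t has more lysine codons (40 of 209) than arginine codons (14 of 209). The coding sequences of Prm1 and Tnp1, from GENCODE M21, are shown to set the arginine codons (in capitals) of a protamine beside those of a transition protein.
Prm1: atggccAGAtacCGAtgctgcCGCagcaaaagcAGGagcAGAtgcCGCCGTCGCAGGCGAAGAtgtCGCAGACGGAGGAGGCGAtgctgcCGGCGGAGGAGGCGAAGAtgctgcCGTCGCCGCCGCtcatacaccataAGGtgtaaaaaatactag
Tnp1: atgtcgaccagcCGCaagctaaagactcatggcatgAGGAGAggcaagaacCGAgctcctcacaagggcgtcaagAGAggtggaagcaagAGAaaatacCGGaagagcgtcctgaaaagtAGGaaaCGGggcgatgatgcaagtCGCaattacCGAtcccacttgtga

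The 5 promoter sequences below are shown because 4 of the genes (Prm1, Prm2, Tnp1 and Tnp2) had the highest member values in the KIT-labelled library, whereas Brdt differed in the opposite direction. Each is the 250 bases before the RefSeq start on GRCm38.p6, read in the direction of transcription. Capitals mark every match to TGANGTCA (its reverse complement is TGACNTCA), to the shorter site TGACG, or to the TATA box TATAAA, searched on both strands. TGANGTCA includes TGACGTCA, the cyclic AMP response element bound by factors such as CREM.
Prm1, chr16:10796824-10797073, minus strand: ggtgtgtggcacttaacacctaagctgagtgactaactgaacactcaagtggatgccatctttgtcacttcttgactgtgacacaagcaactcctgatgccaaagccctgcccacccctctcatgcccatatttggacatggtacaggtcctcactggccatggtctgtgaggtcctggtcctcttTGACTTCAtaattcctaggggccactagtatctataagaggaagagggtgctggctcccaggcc
Prm2, chr16:10792106-10792355, minus strand: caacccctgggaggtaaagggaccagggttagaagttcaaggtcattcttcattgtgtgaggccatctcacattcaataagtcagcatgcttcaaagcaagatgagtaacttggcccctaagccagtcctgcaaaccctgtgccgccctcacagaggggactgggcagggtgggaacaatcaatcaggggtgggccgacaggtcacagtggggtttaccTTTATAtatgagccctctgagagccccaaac
Tnp1, chr1:73015900-73016149, minus strand: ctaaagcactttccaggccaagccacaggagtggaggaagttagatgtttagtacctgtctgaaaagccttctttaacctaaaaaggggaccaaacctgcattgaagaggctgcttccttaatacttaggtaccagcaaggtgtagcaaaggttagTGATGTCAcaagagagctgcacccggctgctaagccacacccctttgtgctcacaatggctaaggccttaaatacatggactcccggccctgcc
Tnp2, chr16:10788656-10788905, minus strand: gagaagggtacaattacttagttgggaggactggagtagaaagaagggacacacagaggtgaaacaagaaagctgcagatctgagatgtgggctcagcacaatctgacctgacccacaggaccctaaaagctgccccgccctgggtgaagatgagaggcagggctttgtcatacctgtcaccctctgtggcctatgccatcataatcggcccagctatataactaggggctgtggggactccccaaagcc
Brdt, chr5:107330944-107331193, plus strand: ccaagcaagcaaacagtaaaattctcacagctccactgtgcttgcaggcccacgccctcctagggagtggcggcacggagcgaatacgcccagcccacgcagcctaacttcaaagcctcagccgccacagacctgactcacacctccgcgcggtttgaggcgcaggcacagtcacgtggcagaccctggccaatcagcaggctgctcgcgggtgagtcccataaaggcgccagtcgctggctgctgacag
Prm1 holds TGACTTCA with its first base 64 bases before the start, Tnp1 holds TGATGTCA at 94, and Prm3, whose promoter is not printed, holds TGAGGTCA at 60. These are 3 of the 10 members, and 7.49% of 32851 mouse promoter windows of the same length hold such a match. The shorter site TGACG was found in the windows of H1fnt and Hist1h2ba and in 17.8% of all windows, and TATAAA in those of Prm2 and Hist1h2ba and in 12.4% of all. The complete TGACGTCA was in no member's window and in 1.55% of all. A match describes letters only.

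All 10 genes were above 0 in both libraries, although 33.2% of all listed symbols were at exactly 0 in the KIT-labelled library and 24.2% in the THY1-labelled library. On the log2(FPKM + 1) scale, 9 genes were higher by 2-fold or more in the KIT-labelled library, and Brdt was higher by 2-fold or more in the THY1-labelled library. Of the 15573 genes that reached 1 FPKM in either library, 39.5% exceeded this 2-fold size in the KIT-labelled library and 41.1% in the THY1-labelled library. FPKM counts fragments per kilobase of transcript, scaled to the mapped fragments of the library. The median difference, labelled KIT minus labelled THY1, was 2.16 over the members and -0.0026 over all these genes. With the libraries scaled to a median ratio of 1, a shift of -0.56, Prm3, H1fnt and Hist1h1t lay within 2-fold. In that setting 6 members stayed at least 2-fold higher in the KIT-labelled library, beside 33.3% of all genes. The scalings tried were too small to turn the direction of any member. In bulk RNA, fewer cells of a type and less RNA per cell cannot be told apart.

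The libraries went against their titles in the antigens they are named for. Kit was listed at 0 in the KIT-labelled library and at 36.7 FPKM in the THY1-labelled library, and Thy1 was at 78.8 FPKM in the KIT-labelled library and at 0.723 FPKM in the THY1-labelled library. The column headers are also crossed: the KIT_AGSC sample has its values under the header Thy1, and the THY1_AGSC sample under the header Kit. Titles are followed throughout, and every direction would turn if they were exchanged. Rpph1, the RNA of RNase P, took 71.8% of the summed FPKM in the KIT-labelled library and 37.9% in the THY1-labelled library. Depth is not given, and a low-end measure of what 1 fragment is worth (FPKM times transcript length) was 6.31 times larger in the KIT-labelled library. Of 10 markers of undifferentiated spermatogonia, 4 were higher by 2-fold or more in the KIT-labelled library and 1 in the THY1-labelled library, and Zbtb16, Lin28a and Neurog3 were listed at 0 in both. Nanos2 and Nanos3 were at 54.1 and 118 FPKM in the KIT-labelled library against 1.49 and 2.74 FPKM in the THY1-labelled library, and Uchl1 was at 3.26 FPKM in the KIT-labelled library and 49.5 FPKM in the THY1-labelled library. Among markers of this list that reached 1 FPKM in either library, the 3 with up to 3 exons were all at least 2-fold higher in the KIT-labelled library. Of the 3 with over 3 exons, 1 was higher in the KIT-labelled library and 1 in the THY1-labelled library. Of 6 markers of differentiating spermatogonia, none was higher by 2-fold or more in the KIT-labelled library and 4 were in the THY1-labelled library, among them Stra8 at 0.743 FPKM in the KIT-labelled library and 34.1 FPKM in the THY1-labelled library. By structure, these were the 1 marker with up to 3 exons and 3 of the 5 with more, and Kit has 21 exons and Stra8 has 10. The 1 marker with up to 3 exons was Rhox13, listed at 0 in the KIT-labelled library and at 1.37 FPKM in the THY1-labelled library. On this gene 1 fragment was worth about 3.13 FPKM in the KIT-labelled library, so this 0 gives no direction. Over all genes the difference went with exon number, as given below, and its part in these markers was not tested.

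**Figure D1:**
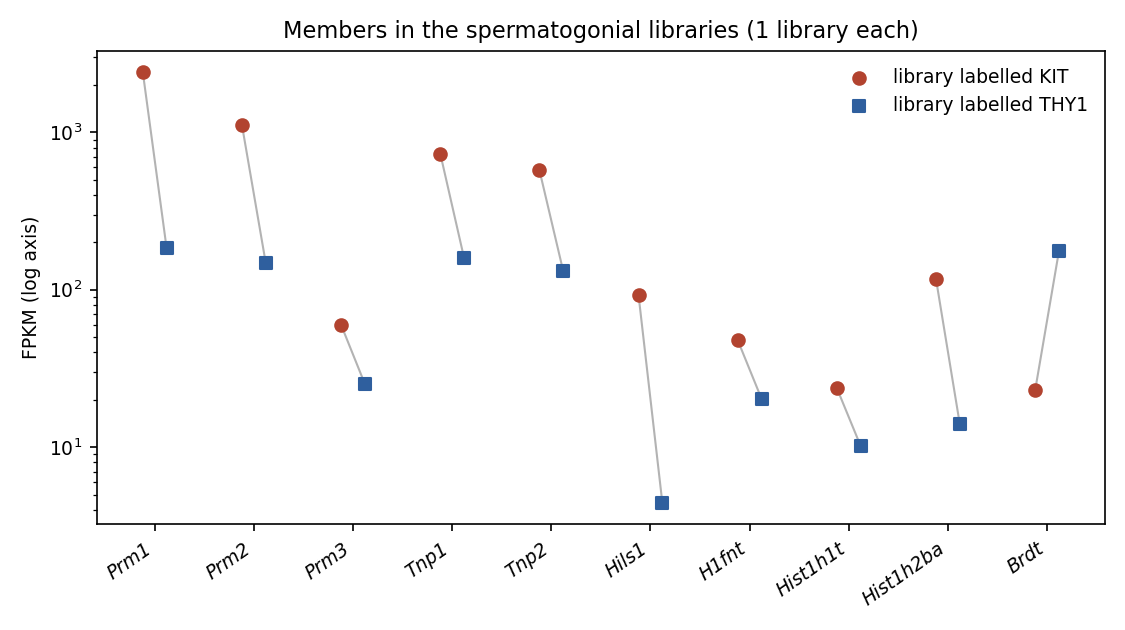
Level of each gene (FPKM, log axis) in the KIT-labelled library (circles) and the THY1-labelled library (squares), 1 library each, with a line joining the values of a gene. Lines run downward for 9 genes and upward for Brdt, at 23.0 FPKM in the KIT-labelled library and 176 FPKM in the THY1-labelled library.

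The main protamines stood among the most abundant transcripts of the KIT-labelled library. Prm1, the arginine-rich protamine of all mammals, was at 2406 FPKM in the KIT-labelled library and at 184 FPKM in the THY1-labelled library, a ratio of 13.1. That placed it 6th of all symbols in the KIT-labelled library and 436th in the THY1-labelled library. Prm2, the protamine that binds zinc and is cut as the sperm nucleus condenses, was at 1110.2 FPKM in the KIT-labelled library (rank 22) and at 148 FPKM in the THY1-labelled library (rank 596), a ratio of 7.52. The Prm1 level was 2.17 times that of Prm2 in the KIT-labelled library and 1.24 times in the THY1-labelled library. Prm3, the acidic product of the same gene cluster, was lower than its neighbours in both, at 59.8 FPKM in the KIT-labelled library and 25.1 FPKM in the THY1-labelled library.

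The transition proteins came next below Prm1 and Prm2 in the KIT-labelled library, whereas Tnp1 lay above Prm2 in the THY1-labelled library. Tnp1, which takes the place of histones in condensing spermatids, was at 732 FPKM in the KIT-labelled library and 159 FPKM in the THY1-labelled library, a ratio of 4.60. Tnp2, a zinc-binding transition protein, was at 575 FPKM in the KIT-labelled library and 131 FPKM in the THY1-labelled library, a ratio of 4.38. Their ratio to each other differed little between the libraries, with Tnp1 at 1.27 times Tnp2 in the KIT-labelled library and 1.21 times in the THY1-labelled library. The ratio of Prm1 to Tnp1 differed more, at 3.29 in the KIT-labelled library and 1.15 in the THY1-labelled library. In the THY1-labelled library, Prm1, Brdt, Tnp1, Prm2 and Tnp2 lay close together between 131 and 184 FPKM, and with no replicate their order there is not established. Prm1, Prm2, Tnp1 and Tnp2 together made up 1.13% of the summed FPKM without Rpph1 in the KIT-labelled library and 0.124% in the THY1-labelled library.

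The testis histones were lower. Hist1h2ba, the testis H2B variant that replaces somatic H2B from the spermatocyte stage, was at 117 FPKM in the KIT-labelled library and 14.0 FPKM in the THY1-labelled library. Hils1, a linker-histone-like protein of elongating spermatids, was at 92.1 FPKM in the KIT-labelled library and 4.42 FPKM in the THY1-labelled library, a ratio of 20.8 and the largest among the 10 genes. H1fnt, a linker histone variant needed for spermatid head shaping and named H1f7 in RefSeq, was at 47.8 FPKM in the KIT-labelled library and 20.3 FPKM in the THY1-labelled library. Hist1h1t, the linker histone of pachytene spermatocytes (H1f6 in RefSeq), was at 23.7 FPKM in the KIT-labelled library and 10.2 FPKM in the THY1-labelled library. The order of these 4 genes differed: Hist1h2ba led in the KIT-labelled library, and Hils1 came last in the THY1-labelled library, where H1fnt led.

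Brdt ran the other way. It encodes the testis member of the BET family, whose bromodomains bind acetylated histone H4 and which is needed for meiotic gene expression and for histone removal in spermatids. Brdt was at 23.0 FPKM in the KIT-labelled library (rank 3493) and at 176 FPKM in the THY1-labelled library (rank 464), so that it was 7.65 times higher in the THY1-labelled library. Brd2 and Brd3, BET genes used by many cell types, were nearer to each other in the libraries, with Brd2 at 68.4 FPKM in the KIT-labelled library and 108 FPKM in the THY1-labelled library and Brd3 at 22.6 and 21.2 FPKM in the same order. Both lay within 2-fold.

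The precision behind these values differed between genes. In units of the low-end worth of 1 fragment, Prm1 amounted to about 412 in the KIT-labelled library and 198 in the THY1-labelled library, and Brdt to about 39.8 and 1920.4 in that order. Hist1h1t amounted to 7.88 in the KIT-labelled library and 21.3 in the THY1-labelled library, Prm3 to 8.94 and 23.7, Hist1h2ba to 16.4 and 12.4, and Hils1 to 29.0 and 8.79. The smallest of these rest on few fragments, and their ratios are the least certain. The short transcripts add to this: apart from Brdt (4745 bases) and H1fnt (1308 bases), the longest annotated transcript of each gene ran from 384 to 912 bases, and how the authors' FPKM treats fragment length on so short a transcript is not given in the sources used here.

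The genes also share a structure that moved with the difference. Hils1, H1fnt, Hist1h1t, Hist1h2ba and Prm3 have 1 exon, Tnp1 and Tnp2 have 2, and Prm1 and Prm2 have at most 3 in any GENCODE M21 transcript, whereas Brdt has 19. Over all genes the median difference between the libraries was lower in each higher exon class. Of 532 genes with 1 exon, 87.6% were at least 2-fold higher in the KIT-labelled library and 3.57% in the THY1-labelled library, with a median difference of 2.52. Of 1792 genes with 2 or 3 exons, 73.4% were higher in the KIT-labelled library and 14.5% in the THY1-labelled library, with a median of 2.13. Of 6794 genes with 4 to 10 exons, 40.8% were higher in the KIT-labelled library and 38.4% in the THY1-labelled library, with a median of 0.24. Of 6202 genes with over 10 exons, 23.4% were higher in the KIT-labelled library and 55.8% in the THY1-labelled library, with a median of -1.42. A count of 9 genes with up to 3 exons that were all higher in the KIT-labelled library, and of 1 gene with 19 exons higher in the THY1-labelled library, stands beside these shares of all genes. Among short genes (up to 1000 bases), the KIT-labelled library was higher for 85.5% of 131 with 1 exon and for 53.7% of 294 with 2 or 3 exons, and the THY1-labelled library for 9.92% and 34.4% in that order. Prm1, Prm2, Tnp1 and Tnp2 belong to those 294 genes. Among genes whose larger value was at least 20 FPKM, a level that all 10 members reach and that was chosen after seeing the data, 98.0% of 196 genes with 1 exon and 84.0% of 695 with 2 or 3 exons were higher in the KIT-labelled library, and 65.0% of 3275 with over 10 exons were higher in the THY1-labelled library. The part of exon number in the members' difference was not tested.

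**Figure D2:**
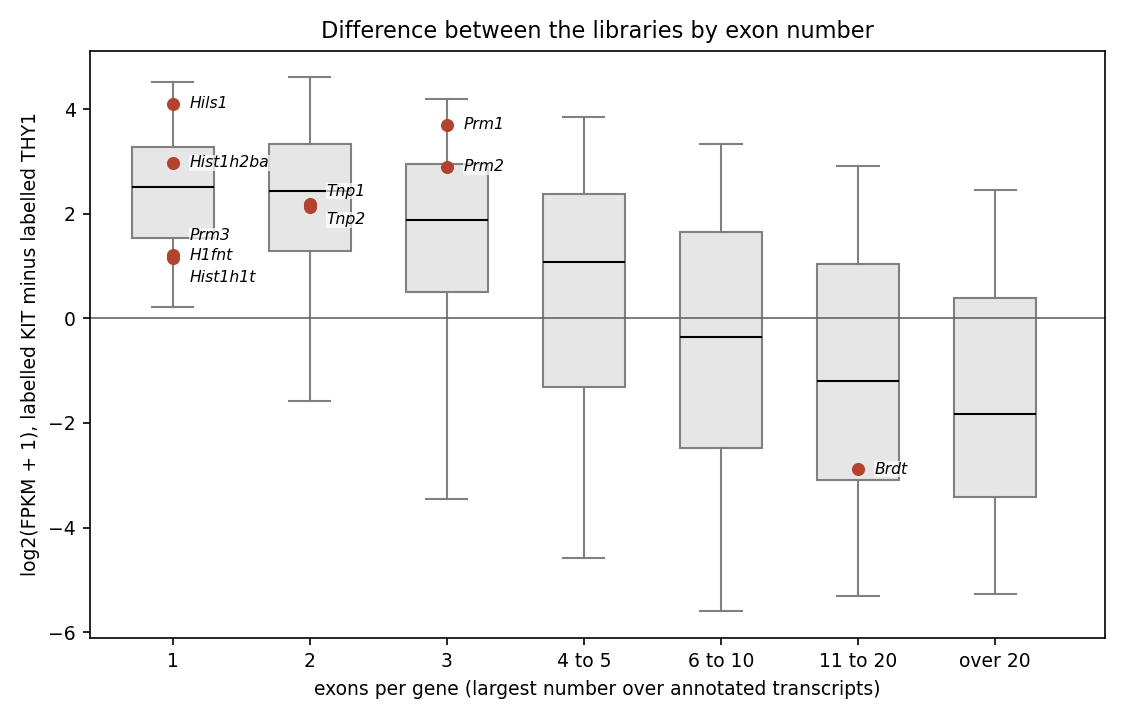
Difference in log2(FPKM + 1), labelled KIT minus labelled THY1, for genes grouped by exon number (boxes: quartiles and median; whiskers: percentiles 5 and 95; genes that reached 1 FPKM in either library), with the 10 genes as points. The median is 2.52 at 1 exon and lies below 0 in the groups of 6 exons and more, and each of the 10 points lies between the whiskers of its group.

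Against genes of the same exon class, the members lay on both sides of the class median. The difference of 5 members was above the median of their class and that of 5 was below it. This split depended on the level of the genes compared. Among genes whose larger value was at least 20 FPKM, the medians were 3.43 (1 exon), 3.10 (2 or 3 exons) and -2.43 (over 10 exons). Against those, only Hils1 (difference 4.10) and Prm1 (3.71) lay above their class median, and all other members lay below it. Hils1 lay at percentile 89.8 of the 1-exon genes and Prm1 at percentile 86.9 of the genes with 2 or 3 exons. Tnp1 and Tnp2, with differences of 2.19 and 2.12, were at percentiles 51.2 and 49.8 of that class. Prm3, H1fnt and Hist1h1t, with differences of 1.22, 1.19 and 1.15, were at percentiles 16.5, 16.0 and 15.0 of the 1-exon genes. Brdt, with a difference of -2.88, was at percentile 29.3 of the genes with over 10 exons. Transcript length went with smaller steps that did not share a direction: 1-exon genes had median differences of 2.76, 2.48 and 2.23 at lengths up to 1000 bases, over 1000 and up to 3000 bases, and over 3000 bases, and genes with 2 or 3 exons had 1.56, 2.17 and 2.31 in that order.

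Within each library, the members lay above most genes of their class that reached 1 FPKM in either library. The difference was computed from these same levels, so the levels are not separate evidence. Prm1 was the highest of the 1792 genes with 2 or 3 exons in the KIT-labelled library, where Prm2 had 2 genes above it, Tnp1 had 10 and Tnp2 had 14. In the THY1-labelled library, Prm1 had 20 such genes above it, Tnp1 had 24, Prm2 had 28 and Tnp2 had 34. Among the 1-exon genes the median level was 10.9 FPKM in the KIT-labelled library and 1.11 FPKM in the THY1-labelled library. Prm3, H1fnt, Hist1h2ba and Hist1h1t stood at percentiles 85.3, 81.0, 93.4 and 66.9 of these genes in the KIT-labelled library and at the higher percentiles 97.4, 97.2, 94.9 and 91.7 in the THY1-labelled library. Hils1 had the opposite order, at percentile 90.4 in the KIT-labelled library and 78.6 in the THY1-labelled library. Brdt was at percentile 82.2 of the genes with over 10 exons in the KIT-labelled library and 97.0 in the THY1-labelled library.

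**Figure D3:**
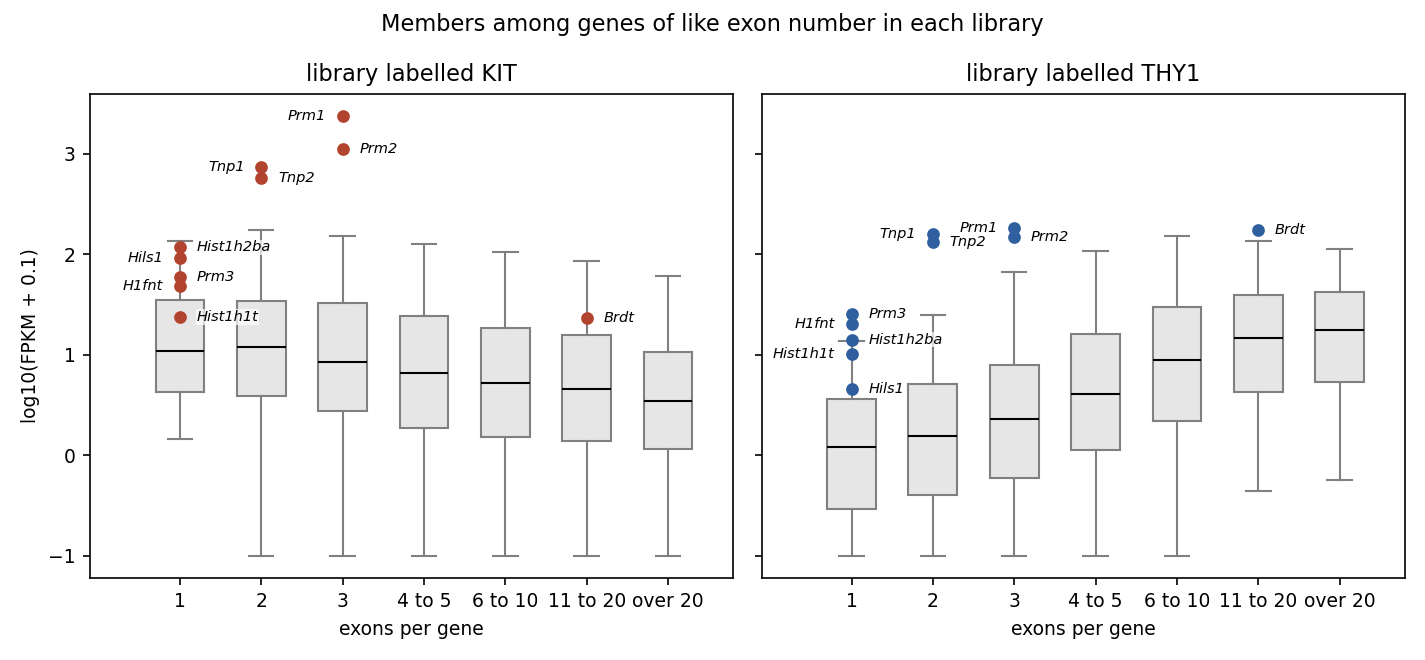
Level as log10(FPKM + 0.1) of genes that reached 1 FPKM in either library, grouped by exon number, in the KIT-labelled library (left) and the THY1-labelled library (right). Boxes show quartiles and median, whiskers percentiles 5 and 95, and points the 10 genes. Prm1, Prm2, Tnp1 and Tnp2 lie above the whiskers in both libraries, and Prm3, H1fnt, Hist1h2ba and Brdt lie above them in the THY1-labelled library.

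The genes around the protamine cluster did not share one direction. Tnp2, Prm3, Prm2 and Prm1 lie side by side on chromosome 16. On the Tnp2 side, the cytokine signalling inhibitor Socs1 was at 19.4 FPKM in the KIT-labelled library and 1.11 FPKM in the THY1-labelled library, Clec16a at 9.70 and 18.5 FPKM in that order, and Dexi at 8.61 and 0.909 FPKM. On the Prm1 side, Litaf was at 3.38 FPKM in the KIT-labelled library and 29.8 FPKM in the THY1-labelled library, Snn at 30.0 and 4.58 FPKM in that order, and Txndc11 at 11.3 and 21.9 FPKM. Each was below Prm1, Prm2, Tnp1 and Tnp2 in both libraries. By distance over the pair of log2(FPKM + 1) values, the 5 genes nearest to the mean of Prm1, Prm2, Tnp1 and Tnp2 were Jmjd8, Fbxw2, B3gat2, Slc24a5 and Ost4, with Jmjd8 at 1058 FPKM in the KIT-labelled library and 135 FPKM in the THY1-labelled library. These 5 genes have 9, 8, 4, 9 and 3 exons in that order. In all, 72 genes were at or above Tnp2 in the KIT-labelled library, 716 in the THY1-labelled library and 38 in both.

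Genes that regulate protamine and transition protein expression were counted next, and 17 of the 18 have over 3 exons. Of these 18 genes, 2 were higher by 2-fold or more in the KIT-labelled library and 11 in the THY1-labelled library, with a median difference of -2.74. Beside this, 39.5% of all genes were higher in the KIT-labelled library and 41.1% in the THY1-labelled library. The THY1-labelled library was higher for 38.4% of genes with 4 to 10 exons and for 55.8% of genes with over 10. Crem, the activator of many postmeiotic genes, was listed at 0 in the KIT-labelled library and at 89.7 FPKM in the THY1-labelled library. The same held for the general factors of germ cells Gtf2a1l (64.5 FPKM in the THY1-labelled library) and Taf7l (76.8 FPKM) and for the RNA helicase Ddx25 (126 FPKM), each listed at 0 in the KIT-labelled library. Ybx2, which binds and stores protamine mRNA, was at 22.9 FPKM in the KIT-labelled library and 331 FPKM in the THY1-labelled library. All 5 have 9 or more exons. The 2 genes higher in the KIT-labelled library, singled out after their values were seen, were Tarbp2, which acts on Prm1 translation, at 49.4 FPKM in the KIT-labelled library and 9.08 FPKM in the THY1-labelled library, and the poly(A) polymerase Papolb at 2.85 and 0.653 FPKM in that order. Tarbp2 has 9 exons as well, and Papolb has 1.

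Factors that remove or replace histones were mostly higher in the THY1-labelled library, and 18 of the 21 have over 3 exons. Of the 21, 3 were higher by 2-fold or more in the KIT-labelled library and 15 in the THY1-labelled library (median -2.35). Beside this, 39.5% of all genes were higher in the KIT-labelled library and 41.1% in the THY1-labelled library. The THY1-labelled library was also higher for 38.4% of genes with 4 to 10 exons and for 55.8% of genes with over 10. The chromatin reader Phf7 was at 10.1 FPKM in the KIT-labelled library and 637 FPKM in the THY1-labelled library, the proteasome activator Psme4, which acts on acetylated histones, at 1.47 and 182 FPKM in that order, and the histone chaperone Nasp at 25.5 and 432 FPKM. The polymerase Parp1 was at 0.616 FPKM in the KIT-labelled library and 118 FPKM in the THY1-labelled library, and the topoisomerase Top2b at a listed 0 and 96.6 FPKM in that order. The 3 higher in the KIT-labelled library, singled out after their values were seen, were the testis kinase Tssk6 (46.4 FPKM in the KIT-labelled library and 1.12 FPKM in the THY1-labelled library), the HMG-box gene Hmgb4 (29.1 and 6.05 FPKM) and the germ cell chaperone Hspa2 (12.2 and 0.891 FPKM), the 3 genes of the list with up to 3 exons.

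The other histone genes examined were 13 listed variants and 4 listed somatic linker histones. All of them lay below Hist1h2ba, Hils1 and H1fnt in the KIT-labelled library, but H1fx, H2afy2 and Hist1h1c lay above Hist1h1t there. Of the 13 variants, 6 differed by at least 2-fold towards the KIT-labelled library and 3 towards the THY1-labelled library (median 0.85). The shares of all genes were 39.5% and 41.1% in that order. Hist1h2aa, the testis H2A partner of Hist1h2ba, was listed at 0 in the KIT-labelled library and at 5.38 FPKM in the THY1-labelled library. On its 390 bases 1 fragment was worth about 7.03 FPKM in the KIT-labelled library, so this 0 gives no direction. Hist1h2aa is nonetheless 1 of the 3 variants counted above towards the THY1-labelled library. The linker histone H1fx was at 36.8 FPKM in the KIT-labelled library and 2.59 FPKM in the THY1-labelled library, and H2afx, phosphorylated at DNA breaks, at 16.9 and 2.92 FPKM in that order. Of the somatic linker histones Hist1h1c was highest, at 24.4 FPKM in the KIT-labelled library and 4.52 FPKM in the THY1-labelled library. Hist1h1a was at 7.61 and 3.00 FPKM and Hist1h1d at 0.985 and 1.74 FPKM in that order, and Hist1h1b was listed at 0 in both. Histone genes have near-identical copies, so reads can be split or lost among them and their values are uncertain.

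Markers of later germ cells were present in both libraries, whose cell type label is spermatogonia. The counts of these lists, and of the somatic lists further below, stand beside the shares of all genes. Those were 39.5% higher by 2-fold or more in the KIT-labelled library and 41.1% in the THY1-labelled library. The THY1-labelled library was higher for 38.4% of genes with 4 to 10 exons and for 55.8% of genes with over 10. Most of the round spermatid, elongating spermatid and Leydig cell genes listed have 4 to 10 exons. Of 19 listed genes of elongating spermatids, 7 were higher by 2-fold or more in the KIT-labelled library and 10 in the THY1-labelled library, their summed level was 1091 FPKM in the KIT-labelled library and 4104 FPKM in the THY1-labelled library, and Ropn1 alone was listed at 0, in the KIT-labelled library. By structure, 5 of the 7 genes with up to 3 exons were higher in the KIT-labelled library and 1 in the THY1-labelled library, while of the 12 with more exons 2 were higher in the KIT-labelled library and 9 in the THY1-labelled library. Tcp11 was at 101 FPKM in the KIT-labelled library and 1047 FPKM in the THY1-labelled library, and Spata19 at 4.09 and 910.3 FPKM in that order. The round spermatid list had 1 of 14 genes higher in the KIT-labelled library and 13 in the THY1-labelled library, with summed levels of 141 FPKM in the KIT-labelled library and 3046 FPKM in the THY1-labelled library and 6 genes listed at 0 in the KIT-labelled library (Acr, Spaca1, Spaca3, Izumo1, Zpbp and Zpbp2).

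The spermatocyte list had 1 of 15 genes higher in the KIT-labelled library and 13 in the THY1-labelled library, with summed levels of 172 FPKM in the KIT-labelled library and 2631 FPKM in the THY1-labelled library. Hormad1, Dmc1, Tex101, Adam2 and Ccna1 were listed at 0 in the KIT-labelled library. The protamines and transition proteins, at 4824 FPKM in sum in the KIT-labelled library and 622 FPKM in the THY1-labelled library, thus differed in the opposite direction to the summed levels of these 3 lists, and Brdt in the same direction. In the THY1-labelled library those sums were carried by genes with over 3 exons. The same held in the KIT-labelled library for the round spermatid and spermatocyte lists. There the elongating spermatid genes with over 3 exons summed to 433 FPKM, less than those with up to 3 exons. The 7 elongating spermatid genes with up to 3 exons summed to 658 FPKM in the KIT-labelled library and 199 FPKM in the THY1-labelled library. That is the direction of the protamines, but Tssk1 alone was at 435 and 17.8 FPKM in that order. Of these 7 genes, 5 were higher by 2-fold or more in the KIT-labelled library and 1, Smcp, in the THY1-labelled library (43.5 and 132 FPKM). The 2 such spermatocyte genes summed to 15.6 and 2.82 FPKM in the same order, most of it from Hspa2 (12.2 and 0.891 FPKM). The 1 such round spermatid gene was at 44.1 and 118 FPKM. The part of spermatids or spermatocytes in either library was not tested.

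Markers of somatic testis cells differed as well. Of 6 listed genes of Leydig cells, which make testosterone, none was higher by 2-fold or more in the KIT-labelled library and 5 were in the THY1-labelled library, with a median difference of -7.99. They summed to 160.5 FPKM in the KIT-labelled library and 6387 FPKM in the THY1-labelled library, and Hsd3b6 and Hsd17b3 were listed at 0 in the KIT-labelled library. The steroid-making enzyme Cyp17a1 was at 18.1 FPKM in the KIT-labelled library and 2945 FPKM in the THY1-labelled library, and Cyp11a1 at 1.97 and 2272 FPKM in that order. All 6 have over 3 exons. The 8 listed Sertoli cell markers summed to 29.0 FPKM in the KIT-labelled library and 890.0 FPKM in the THY1-labelled library, with Clu at 1.62 and 848 FPKM in that order, and 3 were higher by 2-fold or more in the KIT-labelled library and 2 in the THY1-labelled library. The 7 macrophage markers summed to 253 FPKM in the KIT-labelled library and 939.9 FPKM in the THY1-labelled library, with Aif1 at 24.5 and 880.5 FPKM in that order. Of these, 3 were higher by 2-fold or more in the KIT-labelled library, all with 3 exons (C1qa, C1qb and C1qc), and 2 in the THY1-labelled library. The part of somatic cells in the members' difference was not tested.

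**Figure D4:**
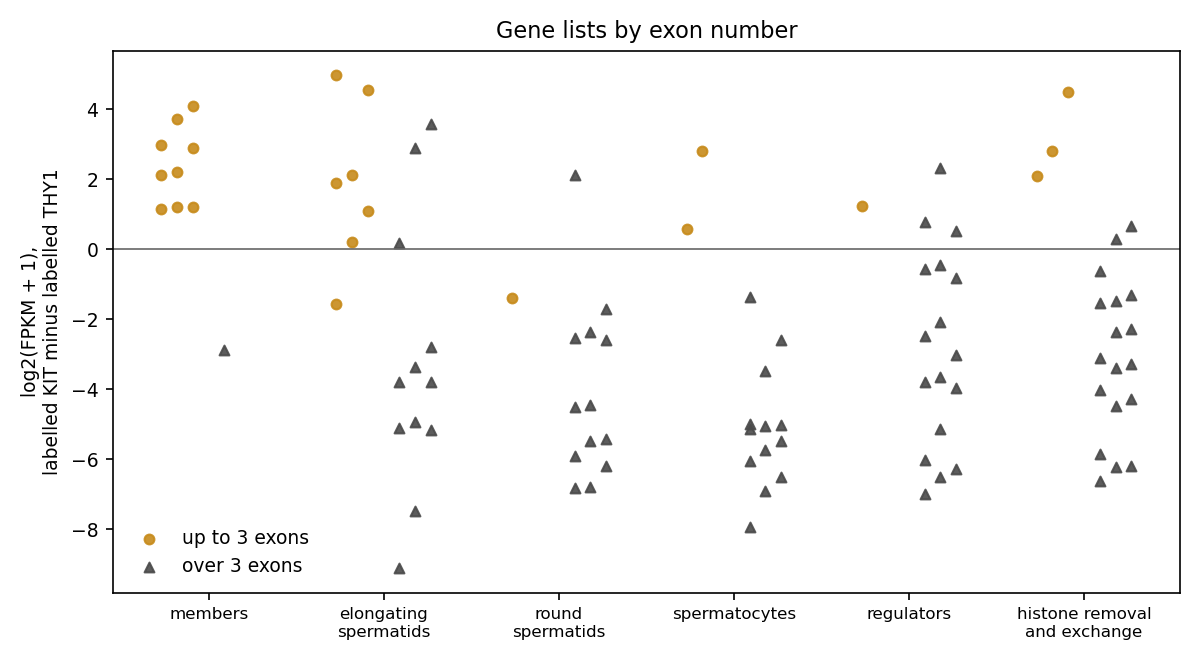
Difference in log2(FPKM + 1), labelled KIT minus labelled THY1, of single genes in 6 lists, with genes of up to 3 exons as circles and genes of over 3 exons as triangles (larger value at least 1 FPKM). In the elongating spermatid list 5 of 7 circles lie at 1 or above, and 9 of 12 triangles lie at -1 or below.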

How the data were processed

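RNA of 2 spermatogonial samples was analysed, 1 library each. Per the labels' protocols, total RNA was depleted of ribosomal RNA and made into directional libraries. The submitters' processing notes name CASAVA, TopHat 1.4.1, Cufflinks 2.1.1 and the build mm9, without roles; annotation, filters and the treatment of reads with several alignments were not stated in what was used here. The deposited values, 1 per gene symbol under a header with no unit, were taken as FPKM, because the notes name Cufflinks and the values are decimals with unequal sums; the total used for scaling includes Rpph1. The record of the series ties each table to a sample, and titles gave the groups.

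Differences were log2(FPKM + 1), labelled KIT minus labelled THY1, over genes that reached 1 FPKM in either library; the pseudocount understates the change of low genes. Counts use a fixed 2-fold size, with no test. Exon number is the largest over the transcripts of a gene in GENCODE M21 (GRCm38), which matched 20282 symbols (98.2%), 1887 of them through older symbols in RefSeq; no coordinate of it was set beside mm9. The worth of 1 fragment was FPKM times transcript length at percentile 5 of values above 0, for genes annotated with only 1 transcript, longer than 1000 bases. Depth is unknown, so no interval is given. Promoters and their coordinates are RefSeq's on GRCm38.p6; all 10 members matched.

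The members and gene lists were chosen with earlier results of these data known, and the exon classes and motifs after seeing the data. Named genes are the members, Kit, Thy1, Rpph1, per pathway list up to 4 that differed most and the 2 highest on average, per marker list the 2 highest on average, the 5 genes nearest to the mean of Prm1, Prm2, Tnp1 and Tnp2 (predicted genes, RIKEN clones and noncoding RNAs left out) and 3 listed neighbours on each side of the cluster; all other names were chosen after their values were seen. Alternatives were a pseudocount of 0.1, 3 scalings, no filter, minimums of 5 and 20 FPKM, genes above 0 in both libraries, and the exon number of the longest transcript. A result for 1 gene is not reported here. Counting was tested on simulated data. Tools were Python 3.11.15, numpy 2.4.6, pandas 2.3.3 and matplotlib 3.10.9.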

Additional observations from a re-analysis of the deposited data

How the results depend on the processing

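None of the settings could turn the direction of any of the 10 genes, so their directions were not put to a check here. The scalings shifted log2 values by -0.56 (median ratio of 1), 0.58 (same upper quartile) and 0.22 (same sum without Rpph1). Each shift is smaller in size than the smallest member difference, 1.15 for Hist1h1t. The other settings leave a member's own value as it is or change the pseudocount. The median difference of the members was 2.16 with the values as deposited, 1.60 after scaling to a median ratio of 1, 2.74 after scaling to the same upper quartile and 2.38 after scaling to the same sum without Rpph1. Differences of exon classes, chosen after seeing the data, moved more with the settings. The median of 1-exon genes, 2.52, was 3.57 with a pseudocount of 0.1, 2.09, 3.00 and 2.72 under the scalings in the order above, 0.54 with no filter (which adds genes at or near 0 in both libraries), 3.01 with a minimum of 5 FPKM, 3.43 with a minimum of 20 FPKM, 2.65 over genes above 0 in both libraries and 1.79 with the exon number of the longest transcript. The median of genes with over 10 exons, -1.42, was -1.75, -1.85, -0.98, -1.25, -0.99, -1.86, -2.43 and -0.98 under the first 8 of these settings in the same order. Among the marker lists, the median of differentiating spermatogonia, -2.01, was 0.079 over genes above 0 in both libraries. That setting leaves out Kit, Sohlh2 and Rhox13, each listed at 0 in the KIT-labelled library and above 0 in the THY1-labelled library. The relative worth of 1 fragment, 6.31, was 6.75 at percentile 2 and 5.90 at percentile 10. No paired analysis was possible because the spermatogonial groups have 1 library each with no shared replicate number, and no replicate could be left out.

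With 1 library per group, none of these differences can be set against the spread between animals or cell preparations. Values near the low-end worth of 1 fragment, such as those of Hist1h1t and Prm3 in the KIT-labelled library, are imprecise.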
